A study of Mus musculus with 14 samples.

Results

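The Rab proteins are the largest branch of the Ras superfamily of small GTPases, and 44 Rab genes of the mouse were described in oocytes that overexpressed Rnaseh1, a nuclease that removes R-loops by cutting RNA paired with DNA. Members were the protein-coding genes named Rab plus a number and a letter suffix, present in both deposited tables and at 1 TPM (a length-corrected share of a library's transcripts) or more in at least 2 libraries of 1 table. The name matched 59 symbols among the 35389 genes of the first table and the 35341 genes of the rescue table, and 44 of the 59 passed. The expression threshold let a gene in through any group, so a gene seen in only 1 group had to differ between groups. Just inside it stood Rab33a, at 1.62 and 1.18 TPM in its 2 highest libraries of the first table, and Rab36, at 1.51 and 1.42 TPM in its 2 highest rescue libraries. Rab34, at 1.83 TPM in a single library, and Rab44, at 0.93 TPM at most, stood just outside. The other genes left out were Rab7b, Rab9b, Rab6b, Rab17, Rab20, Rab27b, Rab37 and Rab40b, which were low, and Rab15, Rab19, Rab26, Rab39 and Rab42, which were listed at 0 in all 14 libraries.

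The series holds 14 polyA RNA-seq libraries of mouse oocytes in 7 groups of 2. In the first table the oocytes were of the surrounded (SN) or the earlier non-surrounded (NSN) nucleolus configuration, named for the chromatin around the nucleolus, and each configuration overexpressed either Rnaseh1 or mCherry, a fluorescent protein that serves as the control. In the rescue table oocytes overexpressed Rnaseh1 together with Supt6, the histone chaperone that travels with RNA polymerase, or Rnaseh1 alone, or mCherry. No wild-type or uninjected oocytes enter either table, so every group carries an overexpressed product. The labels give no configuration for the rescue oocytes, and the source of replicate libraries (other animals, pools or days) is not labelled, so p-values measure only the spread between these libraries. Levels are TPM, and the 2 tables were tested apart.

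Rab proteins cycle between a GDP-bound form held in the cytosol by the GDI proteins and a GTP-bound form on membranes. Guanine nucleotide exchange factors (GEFs) switch them on, GTPase-activating proteins (GAPs) switch them off, and a geranylgeranyl anchor added to their tail holds them on the membrane. Each compartment carries its own Rabs: Rab1 and Rab2 between the endoplasmic reticulum and the Golgi, Rab5 on early endosomes, Rab7 on late endosomes, Rab11 on recycling endosomes, and Rab3 and Rab27 on secretory granules. In mouse oocytes Rab11a marks the vesicles that organise the cytoplasmic actin network, and Rab3a and Rab27a act on the cortical granules whose release blocks polyspermy.

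Several Rabs exist as close copies on different chromosomes, and 2 sets are shown because their members moved in opposite directions. The stretches below cover 20 codons of coding sequence from the start of the switch II motif, which holds the nucleotide-binding pocket's moving loop. The motif was found in frame in 37 of the 44 members. Capitals mark a G or C at the last position of a codon, where most changes leave the protein as it is. Sequences are from the GENCODE M21 transcripts, on GRCm38.
Rab1a: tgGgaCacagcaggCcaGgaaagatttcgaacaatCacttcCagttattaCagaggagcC
Rab1b: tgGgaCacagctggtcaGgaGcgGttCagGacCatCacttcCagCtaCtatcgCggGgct
Rab5a: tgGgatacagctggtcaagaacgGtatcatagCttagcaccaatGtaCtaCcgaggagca
Rab5b: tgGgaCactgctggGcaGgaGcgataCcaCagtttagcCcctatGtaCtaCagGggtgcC
Rab5c: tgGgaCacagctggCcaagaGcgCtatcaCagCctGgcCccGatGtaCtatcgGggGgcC

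The Rab1a stretch (chr11:20223084-20223143, plus strand) had G or C at 8 of 20 last positions, against 14 of 20 in Rab1b (chr19:5104677-5104736, minus strand). Among the Rab5 copies the number was 6 of 20 in Rab5a (chr17:53497583-53497642, plus strand), 13 of 20 in Rab5b (chr10:128683231-128683290, minus strand) and 15 of 20 in Rab5c (chr11:100718467-100718526, minus strand). In both sets the copy with the fewest G or C last positions was the one that rose with Rnaseh1 in the rescue set. The sets were picked for their opposite directions, so this only describes them.

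Before the results, 2 libraries of the first table stand apart from their partners. Over the members tested, the difference between replicates in log2(TPM + 1) had a standard deviation of 1.11 in NSN oocytes with Rnaseh1 and of 1.06 in SN oocytes with mCherry, against 0.25 to 0.50 in the other 5 groups. The second replicate of each was taken as the library that stands apart, though a spread between 2 libraries cannot say which deviates. Differences and counts of the first table are given with and without both second replicates. Rnaseh1 itself was at 2144 ± 179 TPM with Rnaseh1 plus Supt6, 934 ± 437 TPM with Rnaseh1 and 119 ± 7.69 TPM with mCherry in the rescue set (SD, n = 2). In the first table it was at 1222 ± 196 TPM in SN oocytes with Rnaseh1 against 106 ± 35.4 TPM with mCherry, and at 487 ± 365 TPM in NSN oocytes with Rnaseh1 against 122 ± 20.5 TPM with mCherry. Supt6 was at 24.6 ± 5.08 TPM in its own group, 2.78 ± 0.325 TPM with Rnaseh1 alone and 3.21 ± 0.099 TPM with mCherry. All 12 oocyte markers were above 1 TPM in every library. The 12 granulosa markers summed to 24.9 to 55.3 TPM, mostly Cyp19a1, while Foxl2 and Amh were at 0 throughout. Of the endothelial list, Pecam1 was at 29.4 and 31.4 TPM with Rnaseh1 plus Supt6, 5.52 and 9.26 TPM with Rnaseh1 and 29.97 and 31.8 TPM with mCherry in the rescue set, while Cdh5 was at 0 in all but 1 library. The 1 blood and immune marker tested there fell with Rnaseh1 against mCherry, by 2.09 on the log2 scale, and rose by 1.60 with Rnaseh1 plus Supt6 against Rnaseh1, at a summed list level of 4.74 TPM at most. Of the oocyte markers, 9 of 12 fell and 1 rose with Rnaseh1 against mCherry, where 46.2% and 20.3% of all genes tested did. With Rnaseh1 plus Supt6 against Rnaseh1, 7 rose and 1 fell, where 41.6% and 17.4% of all genes did. Zp3, a zona pellucida protein, was at 575 ± 11.7 TPM with Rnaseh1 against 3080 ± 110 TPM with mCherry (SD, n = 2 each). The part of these shifts in the Rab results was not tested.

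A few Rabs made up most of the family's RNA. In rescue oocytes with mCherry, Rab7 led at 849 ± 11.3 TPM, followed by Rab14, which works between the Golgi and endosomes, at 655 ± 92.8 TPM and Rab11a at 622 ± 92.9 TPM. Rab38, known from lysosome-related organelles such as melanosomes, followed at 300.4 ± 8.74 TPM and Rab3b at 137 ± 6.49 TPM (SD, n = 2). Rab14 and Rab11a overlapped between libraries, and the other neighbours in this order did not. With Rnaseh1 alone the order was Rab14 at 525 ± 20 TPM, Rab11a at 505 ± 17.9 TPM, Rab7 at 186 ± 11.2 TPM and Rab38 at 184 ± 29.3 TPM. Rab14 and Rab11a overlapped there too, as did Rab7 and Rab38. The summed level of all members was 3109 ± 27.7 TPM with Rnaseh1 plus Supt6, 2043 ± 37.7 TPM with Rnaseh1 and 3395 ± 211 TPM with mCherry. The same 5 genes led in the mCherry libraries of the first table, where Rab11a had the highest mean, at 656 ± 108 TPM in SN and 575 ± 66.7 TPM in NSN oocytes. Rab7 overlapped it in SN oocytes with mCherry, at 222 and 879 TPM against 732 and 580 TPM for Rab11a.

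**Figure D1:**
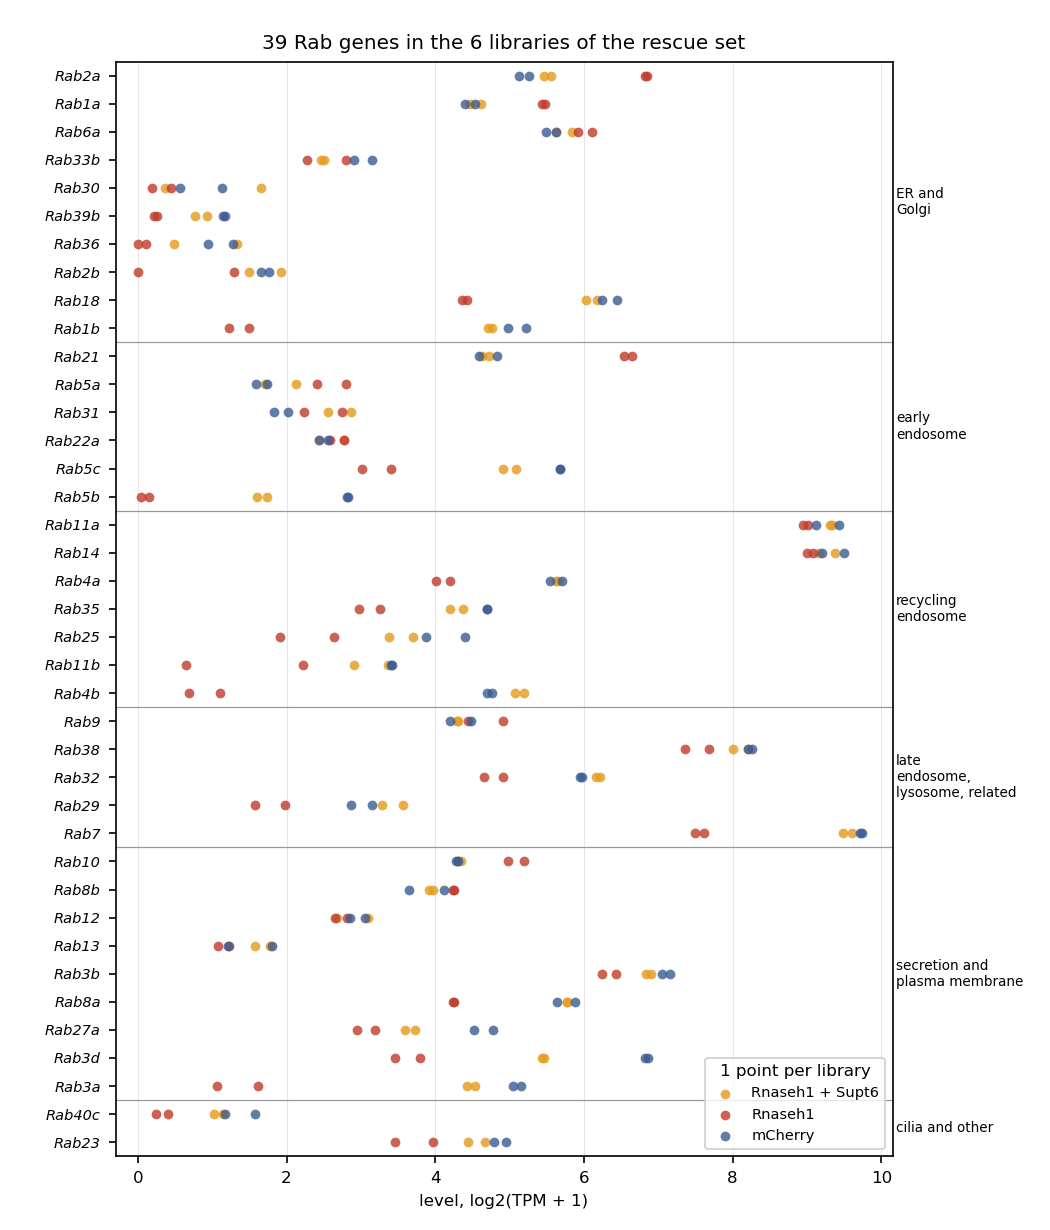
Levels in log2(TPM + 1) of the Rab genes tested in the rescue set, grouped by compartment; each point is 1 library of the Rnaseh1 plus Supt6, Rnaseh1 or mCherry group (n = 2 each). Rab21, Rab2a, Rab1a and Rab10 sit higher with Rnaseh1 than in the other groups, while Rab1b, Rab4b and Rab3a sit more than an order of magnitude below the mCherry points.

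The question of the first rescue comparison is what Rnaseh1 does to the oocyte's Rab transcripts. Most of them fell: of the 39 members tested, 24 fell and 6 rose with Rnaseh1 against mCherry (limma, adjusted p under 0.05 over 12859 genes). Among all genes tested, 46.2% fell and 20.3% rose, so the members' 61.5% and 15.4% leaned further down than the whole table. The 24 include Rab5b, Rab36, Rab39b and Rab40c. None of these reached 1 TPM in an Rnaseh1 library, so the direction of their falls followed from the filter, which all genes passed alike. The members' median difference was -1.05 in log2(TPM + 1), against -0.52 over all genes. With libraries centred on the median gene these were -0.46 and 0.06. With a pseudocount of 5 in place of 1 they came close, at -0.36 and -0.28. With the trend with GC content over all genes removed they were -0.35 and -0.01. Differences below are given on that log2 scale, positive where the first-named group is higher. The libraries did not overlap for 37 of 39 members, against 81.1% of all genes. In bulk oocyte RNA, fewer transcripts per oocyte and fewer oocytes that carry them cannot be told apart.

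The 6 genes that rose were Rab21, Rab2a, Rab1a, Rab5a, Rab10 and Rab6a. Rab21 (chr10:115287084-115315594), an early endosomal Rab that binds integrins, was at 92.1 and 99.1 TPM with Rnaseh1, against 27.4 and 23.2 TPM with mCherry. Both Rnaseh1 libraries were more than 3 times as high as either mCherry library. The difference was 1.88 (SE 0.13, adjusted p = 1.88e-05).

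Among the Rabs of the endoplasmic reticulum and Golgi, 3 of 10 rose and 4 fell, where 20.3% and 46.2% of all genes did. Rab2a (chr4:8535644-8607778), which acts in transport between the endoplasmic reticulum and the Golgi, was at 112 and 114 TPM with Rnaseh1, against 37.4 and 34.0 TPM with mCherry. The libraries stood far apart, with a difference of 1.64 (SE 0.11, adjusted p = 1.45e-05). Rab6a, which drives traffic within and out of the Golgi, was at 59.6 and 67.8 TPM with Rnaseh1, against 44.1 and 48.4 TPM with mCherry. This was the smallest of the 6 rises, 0.45 (SE 0.13, adjusted p = 0.0188). It ended at an adjusted p of 0.0656 without Rnaseh1 replicate 2 and 0.0964 without mCherry replicate 1. Rab18, a Rab of the endoplasmic reticulum and lipid droplets, fell to 20.4 and 19.5 TPM with Rnaseh1, against 85.8 and 74.5 TPM with mCherry. Rab36 and Rab39b, low members, also fell, with differences of -1.06 and -0.92. The Rab36 call ended without any 1 of the Rnaseh1 or mCherry libraries, with adjusted p of 0.0532 to 0.125. Rab39b reached 1 TPM only in the 2 mCherry libraries and Rab36 only in 1 mCherry and 1 Rnaseh1 plus Supt6 library, so the direction of both followed from the filter.

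The Rab1 copies split. Rab1a (chr11:20201432-20226856), which carries cargo from the endoplasmic reticulum to the Golgi, was at 43.4 and 42.4 TPM with Rnaseh1, against 22.2 and 20.2 TPM with mCherry. Its copy Rab1b (chr19:5099205-5107072) was at 1.33 and 1.81 TPM with Rnaseh1, against 30.6 and 36.5 TPM with mCherry. Rab1a was 2.03 times as high with Rnaseh1 (0.99, SE 0.13, adjusted p = 0.000528), and Rab1b was 21.3 times lower (-3.75, SE 0.19, adjusted p = 4.32e-06). The sum of the 2 copies moved less, at 44.5 TPM with Rnaseh1 against 54.7 TPM with mCherry, while the share of Rab1a in it was 96.5 ± 0.79% with Rnaseh1 against 38.8 ± 4.53% with mCherry (SD, n = 2 each). That is a difference of 57.6 percentage points, for which an exact two-sided permutation test gives p = 0.333, the smallest that 2 libraries against 2 allow. RSEM divides reads that match both copies, so levels of single copies carry that uncertainty.

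Early endosomal Rabs split in the same way, with 2 of 6 risen and 2 fallen, against 20.3% and 46.2% of all genes. The Rab5 proteins drive the fusion of early endosomes. Rab5a was at 4.33 and 5.95 TPM with Rnaseh1, against 2.0 and 2.33 TPM with mCherry. Rab5c was at 9.61 and 7.11 TPM with Rnaseh1, against 49.97 and 50.2 TPM with mCherry, and Rab5b was at 0.03 and 0.11 TPM against 6.08 and 6.01 TPM. No library of 1 group reached into the other for any of the 3 copies. Rab5a rose by 0.95 (SE 0.27, adjusted p = 0.0176), Rab5c fell by 2.46 (SE 0.17, adjusted p = 1.85e-05) and Rab5b fell by 2.72 (SE 0.24, adjusted p = 5.08e-05). Rab5b reached 1 TPM only in the mCherry and Rnaseh1 plus Supt6 libraries, so the direction of its fall followed from the filter. The Rab5a call ended without any 1 of Rnaseh1 replicate 2, mCherry replicate 1 and mCherry replicate 2, with adjusted p of 0.0644, 0.0837 and 0.0551. Rab22a at 0.18 and Rab31 at 0.57, further Rabs of the early endosome and the trans-Golgi network, did not pass.

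**Figure D2:**
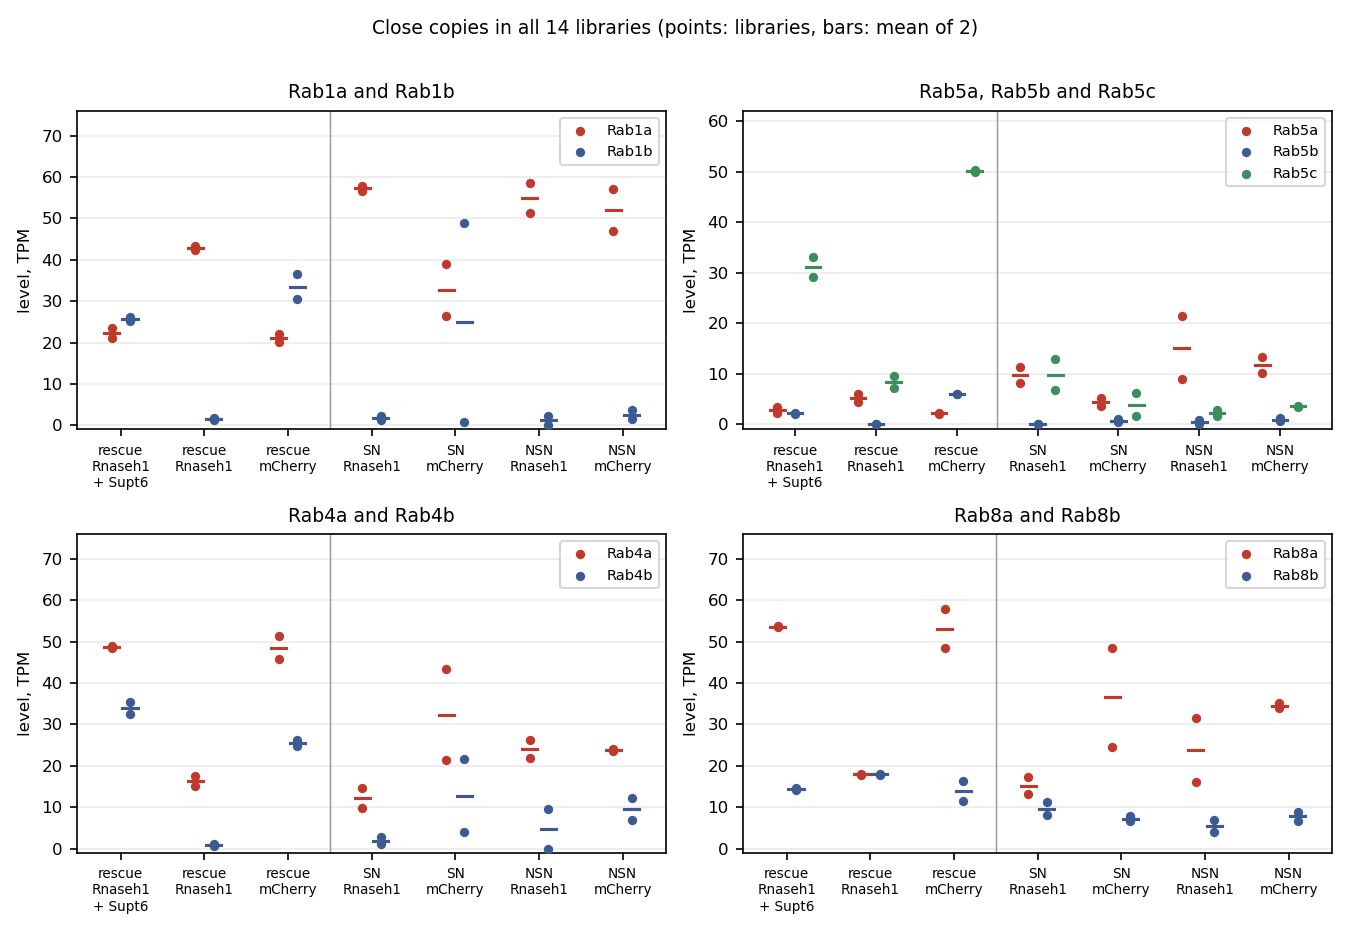
Levels in TPM of the Rab1, Rab5, Rab4 and Rab8 copies in every library (points) with the mean of the 2 libraries of a group (bars); the vertical line parts the rescue set from the first table. In the rescue set Rab1a is high and Rab1b near 0 with Rnaseh1, and the 2 are of similar level with Rnaseh1 plus Supt6; in the first table Rab1b is near 0 in all libraries but 1 of SN oocytes with mCherry, at 49.0 TPM.

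All 7 Rabs of the recycling endosome fell, where 46.2% of all genes did. Of the 7, only Rab4b passed under every alternative and left-out library. Rab4a and Rab4b return receptors from early endosomes to the surface by the fast route. Rab4b (chr7:27168424-27178896) was at 0.61 and 1.16 TPM with Rnaseh1, against 24.8 and 26.1 TPM with mCherry. Rab4a was at 17.4 and 15.1 TPM with Rnaseh1, against 45.8 and 51.4 TPM with mCherry. Rab4b was thus nearly lost while Rab4a kept 16.2 of 48.6 TPM. Rab4b fell by 3.83 (SE 0.21, adjusted p = 5.56e-06), the largest fall of the members on the log2(TPM + 1) scale, and Rab4a by 1.52 (SE 0.13, adjusted p = 5.67e-05). With a pseudocount of 0.1 Rab5b was lowest, at -5.22, and with the GC trend removed the Rab4a difference was -0.35 (adjusted p = 0.0481, and 0.0661 with the replicate block). Rab25 and Rab11b, relatives of Rab11a, fell by 1.86 and 1.98, and Rab35, a Rab of fast recycling and cytokinesis, by 1.58. The calls of Rab25, Rab11b and Rab35 ended with the GC trend removed, at -0.49, -0.49 and -0.30.

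Rab11a and Rab14, 2 of the most abundant members, barely moved. Rab11a (chr9:64715299-64737758) was at 492 and 517 TPM with Rnaseh1, against 688 and 557 TPM with mCherry. Rab14 was at 540 and 511 TPM with Rnaseh1, against 720 and 589 TPM with mCherry. The groups did not overlap, yet the 2 mCherry libraries lay further apart than their nearer one lay from the Rnaseh1 libraries. The fall was 0.29 for Rab11a (SE 0.11, adjusted p = 0.0416) and 0.31 for Rab14 (adjusted p = 0.0499). Both calls ended when any 1 library other than mCherry replicate 2 was left out, with adjusted p between 0.0592 and 0.273, and both differences turned positive, at 0.29 and 0.28, when libraries were centred on the median gene.

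Of the 5 late endosomal and lysosomal Rabs tested, 4 fell, against 46.2% of all genes. Rab7 (chr6:87999106-88045270), which takes late endosomes and autophagosomes to the lysosome, was at 178 and 194 TPM with Rnaseh1, against 857 and 841 TPM with mCherry. It lost its first place among the members, with a fall of 2.18 (SE 0.08, adjusted p = 1.36e-06). Rab32 and Rab38, close relatives that serve lysosome-related organelles, fell by 1.18 and 0.71. Rab29, which recruits the kinase Lrrk2 to membranes, fell by 1.23. The calls of Rab38 and Rab29 ended with libraries centred on the median gene, at -0.13 and -0.65. They also ended with the GC trend removed, at -0.32 and -0.28, and that of Rab29 with quantile normalisation, at -0.53. Rab9, which returns receptors from late endosomes to the Golgi, was at 20.7 and 29.2 TPM with Rnaseh1 against 17.3 and 21.4 TPM with mCherry, and these overlap (adjusted p = 0.175).

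Rabs of secretion split between 5 that fell and 1 that rose, of 9 tested, against 46.2% and 20.3% of all genes. Rab3a (chr8:70754679-70758677) was at 2.08 and 1.09 TPM with Rnaseh1, against 34.7 and 32.0 TPM with mCherry. Rab3d (chr9:21907491-21918192), a Rab3 copy of exocrine granules, was at 12.9 and 10.02 TPM with Rnaseh1, against 112 and 115 TPM with mCherry. Rab3b (chr4:108879063-108943324), the most abundant copy, was at 85.4 and 74.9 TPM with Rnaseh1, against 141 and 132 TPM with mCherry. All 3 Rab3 genes tested fell, with differences of -3.76 for Rab3a (SE 0.23, adjusted p = 9.3e-06), -3.21 for Rab3d (SE 0.14, adjusted p = 2.65e-06) and -0.76 for Rab3b (SE 0.10, adjusted p = 0.00051). The Rab3b difference became 0.06 once the trend with GC content was removed. Rab27a was at 6.74 and 8.15 TPM with Rnaseh1, against 21.99 and 26.5 TPM with mCherry, and fell by 1.58 (SE 0.19, adjusted p = 0.000269).

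Rab8a and Rab10 both carry vesicles from the trans-Golgi network to the plasma membrane, and they moved apart. Rab10 (chr12:3247428-3309969) was at 35.7 and 30.7 TPM with Rnaseh1, against 18.8 and 18.4 TPM with mCherry. Rab8a was at 17.9 and 18.1 TPM with Rnaseh1, against 57.8 and 48.6 TPM with mCherry. Rab10 rose by 0.80 (SE 0.14, adjusted p = 0.00214) and Rab8a fell by 1.51 (SE 0.13, adjusted p = 5.18e-05). The Rab8a copy Rab8b was at 17.9 and 18.1 TPM with Rnaseh1 against 11.5 and 16.4 TPM with mCherry, a difference of 0.36 that did not pass (adjusted p = 0.145). Of the remaining Rabs, Rab23, a negative regulator of Hedgehog signalling, fell by 1.15 and Rab40c, part of a ubiquitin ligase, by 1.05. Rab40c reached 1 TPM only in the mCherry and Rnaseh1 plus Supt6 libraries, so the direction of its fall followed from the filter. The Rab40c call ended without mCherry replicate 1 (adjusted p = 0.055).

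**Figure D3:**
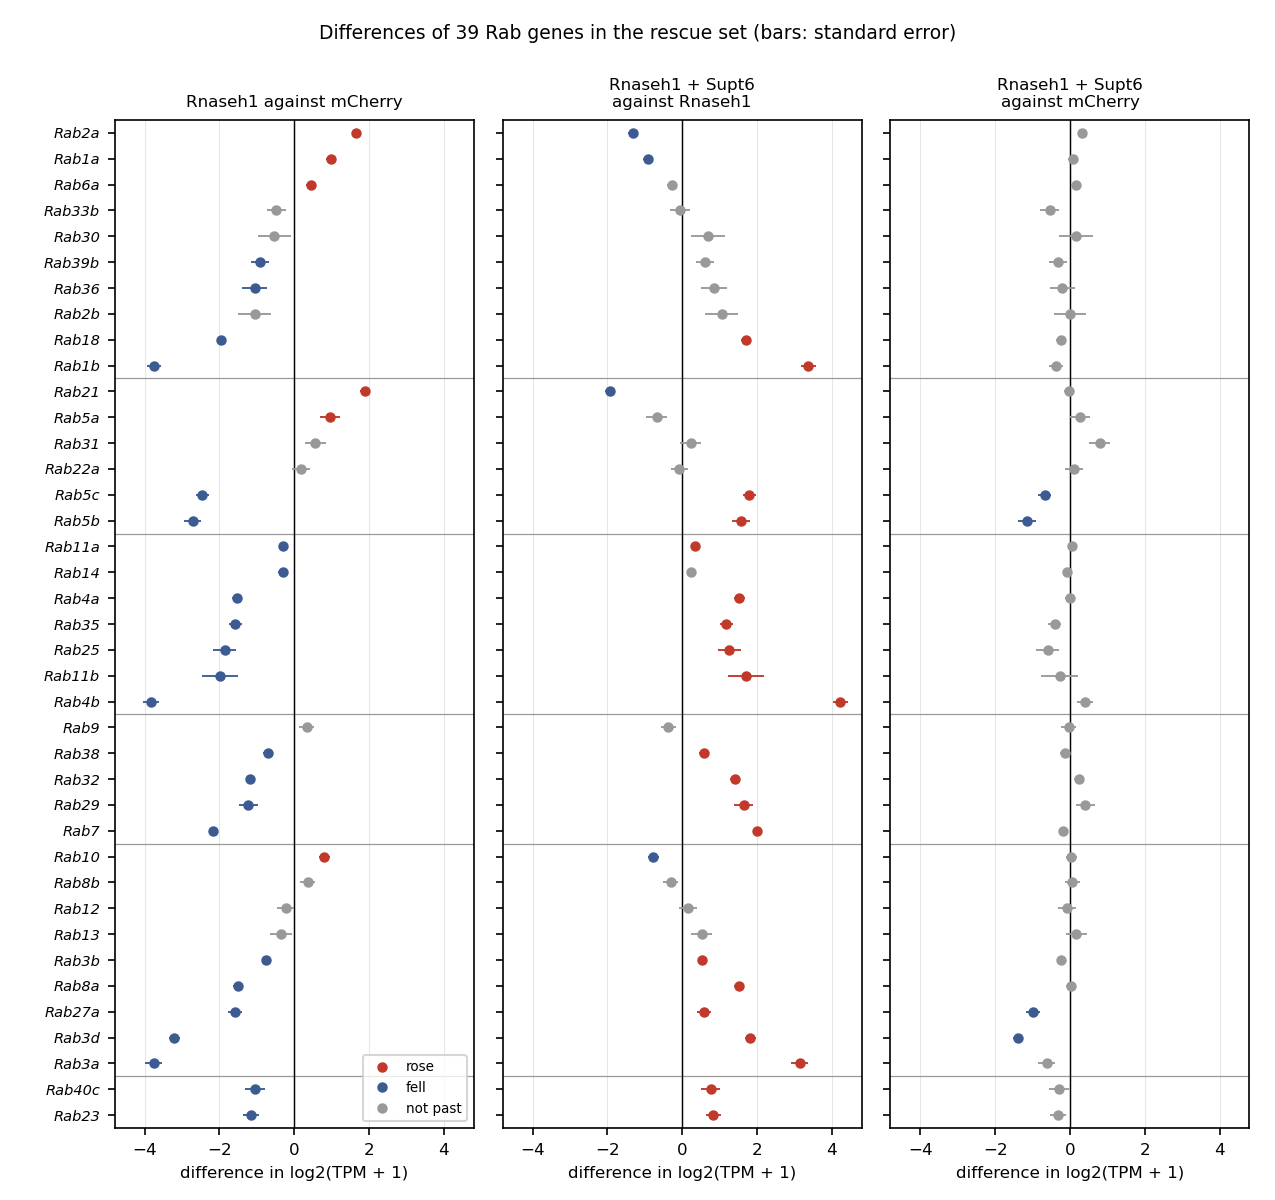
Difference in log2(TPM + 1) of each Rab gene tested in the rescue set, with its standard error, in 3 comparisons: Rnaseh1 against mCherry, Rnaseh1 plus Supt6 against Rnaseh1, and Rnaseh1 plus Supt6 against mCherry. Called genes lie on opposite sides of 0 in the first 2 panels, which share the Rnaseh1 libraries, and in the last the 4 called genes are Rab3d, Rab5b, Rab27a and Rab5c, all below 0.

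The second rescue comparison asks whether these levels differ when Supt6 is overexpressed with Rnaseh1. The 2 groups differed in Rnaseh1 as well, at 2270 and 2017 TPM with Rnaseh1 plus Supt6 against 1243 and 625 TPM with Rnaseh1. The part of that difference was not tested. With Rnaseh1 plus Supt6 against Rnaseh1 alone, 21 of 39 members rose and 4 fell, or 53.8% and 10.3%, against 41.6% and 17.4% of all genes. The comparison shares the Rnaseh1 libraries with the one before, so an opposite direction is in part built in. The libraries did not overlap for 34 of 39 members, against 80.0% of all genes. Rab4b was at 32.5 and 35.5 TPM with Rnaseh1 plus Supt6, against 0.61 and 1.16 TPM with Rnaseh1. Rab1b was at 25.1 and 26.1 TPM with Rnaseh1 plus Supt6, against 1.33 and 1.81 TPM with Rnaseh1. Rab3a was at 20.6 and 22.2 TPM with Rnaseh1 plus Supt6, against 2.08 and 1.09 TPM with Rnaseh1. On the log2(TPM + 1) scale these 3 genes had the largest rises, of 4.23 (SE 0.21, adjusted p = 5.74e-06), 3.38 (SE 0.19, adjusted p = 1.01e-05) and 3.14 (SE 0.23, adjusted p = 3.04e-05). With a pseudocount of 0.1 Rab5b, at 3.79, came before Rab3a, at 3.74. Neither Rab5b nor Rab40c reached 1 TPM in the Rnaseh1 libraries, so the direction of their rises followed from the filter.

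Rab7 was at 714 and 776 TPM with Rnaseh1 plus Supt6, against 178 and 194 TPM with Rnaseh1. It rose by 1.99 (SE 0.08, adjusted p = 2.91e-06). By compartment, 6 of 7 recycling, 4 of 5 late endosomal and 5 of 9 secretory Rabs rose, against 41.6% of all genes. With the GC trend removed, the rises of Rab11b, Rab25 and Rab35 among the recycling Rabs ended, at 0.56, 0.18 and 0.16, as did those of Rab38, at 0.22, and Rab27a, at 0.38. The recycling Rab that did not pass was Rab14, at 0.24 (adjusted p = 0.123). Rab11a, at 0.34 (adjusted p = 0.0274), lost its call without any 1 of the libraries of the 2 groups (adjusted p = 0.0619 to 0.117) and turned to -0.17 with median centring. Rab11b, Rab25, Rab38, Rab23 and Rab40c each lost theirs without 1 or more of these libraries, with adjusted p between 0.0541 and 0.156, and Rab3b and Rab40c turned to -0.17 and -0.42 with the GC trend removed. Among the secretory genes, Rab3d and Rab8a rose by 1.82 and 1.52. Rab27a, at 0.59 (adjusted p = 0.0306), lost its call without Rnaseh1 plus Supt6 replicate 1, replicate 2 or Rnaseh1 replicate 1, with adjusted p of 0.0924, 0.165 and 0.0780, and turned to -0.06 under quantile normalisation.

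The 4 genes that fell with Rnaseh1 plus Supt6 against Rnaseh1 were among the 6 that rose with Rnaseh1 against mCherry. Rab21 was at 25.4 and 23.8 TPM with Rnaseh1 plus Supt6, against 92.1 and 99.1 TPM with Rnaseh1. Rab2a was at 43.1 and 46.0 TPM with Rnaseh1 plus Supt6, against 112 and 114 TPM with Rnaseh1. Groups stood apart in both, with falls of 1.92 (adjusted p = 2.53e-05) and 1.32 (adjusted p = 5.63e-05). Rab1a fell by 0.91 (adjusted p = 0.00101) and Rab10 by 0.77 (adjusted p = 0.00319). Rab5a, at -0.68 (adjusted p = 0.0645), and Rab6a, at -0.28 (adjusted p = 0.104), did not pass. The share of Rab1a in the Rab1 sum was 46.7 ± 1.23% with Rnaseh1 plus Supt6 against 96.5 ± 0.79% with Rnaseh1, a difference of -49.8 percentage points (exact two-sided permutation p = 0.333, the smallest possible).

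Set against mCherry, oocytes with Rnaseh1 plus Supt6 had 4 members that fell and 0 that rose, of 39, while 7.6% of all genes fell and 5.71% rose (limma). At an unadjusted p under 0.05, 8 members differed, 2 higher and 6 lower, against 28.1% of all genes. Rab3d was at 42.2 and 43.1 TPM with Rnaseh1 plus Supt6, against 112 and 115 TPM with mCherry. Rab27a was at 11.1 and 12.3 TPM with Rnaseh1 plus Supt6, against 21.99 and 26.5 TPM with mCherry. In both genes the Rnaseh1 plus Supt6 libraries lay between those of Rnaseh1 alone and mCherry. The falls were 1.39 for Rab3d (SE 0.14, adjusted p = 0.00363), 1.15 for Rab5b (SE 0.24, adjusted p = 0.024), 0.99 for Rab27a (SE 0.19, adjusted p = 0.0195) and 0.67 for Rab5c (SE 0.17, adjusted p = 0.0465). The libraries did not overlap for 21 of 39 members, against 61.3% of all genes. None of the 4 passed under every library left out: 0 members passed without either Rnaseh1 plus Supt6 library or without mCherry replicate 2, 1 without mCherry replicate 1, and 5 without either Rnaseh1 library. Rab7 at -0.19 (adjusted p = 0.177), Rab21 at -0.03, Rab1b at -0.37 (adjusted p = 0.264) and Rab3a at -0.62 (adjusted p = 0.126) did not pass, which does not show that they were equal. Rab3a passed, at an adjusted p of 0.0302 and 0.0281, when either Rnaseh1 library was left out.

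In the first table no member and no other gene passed in any comparison (limma, 12736 genes tested, 43 members among them, 0.0% called). At an unadjusted p under 0.05, 9 of 43 members, or 20.9%, differed with Rnaseh1 against mCherry in SN oocytes, against 6.74% of all genes. These were Rab21, Rab10 and Rab1a, which were higher, and Rab43, Rab3a, Rab4a, Rab31, Rab8a and Rab2b, which were lower. Rab2b reached 1 TPM only in the mCherry libraries of this table and Rab43 only in those of SN oocytes, so the direction of both followed from the filter. Without NSN Rnaseh1 replicate 2 and SN mCherry replicate 2, 13 members, or 30.2%, had an unadjusted p under 0.05, 7 of them higher and 6 lower, against 14.1% of all genes. In NSN oocytes the number was 1 member, against 2.77% of all genes, and 1 member against 4.33% without the 2 libraries. Libraries did not overlap for 24 members in SN and 13 in NSN oocytes, against 50.7% and 32.9% of all genes. Rab21 was at 90.0 and 99.2 TPM in SN oocytes with Rnaseh1, against 32.6 and 18.1 TPM with mCherry. Rab10 was at 58.3 and 67.7 TPM in SN oocytes with Rnaseh1, against 24.2 and 21.9 TPM with mCherry. Both had groups that did not overlap, with differences of 1.92 (SE 0.50) and 1.41 (SE 0.40), and the adjusted p was 0.61 for each. Without NSN Rnaseh1 replicate 2 and SN mCherry replicate 2 these were 1.51 and 1.34, with adjusted p of 0.268 to 0.276. The SN gene with the smallest p was Rab43, a Golgi Rab, at 0.08 and 0.00 TPM with Rnaseh1 against 2.17 and 12.7 TPM with mCherry. Its difference was -2.66 (SE 0.65, adjusted p = 0.61), and -1.61 without the 2 libraries.

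In NSN oocytes the 3 members with the smallest p were Rab31, at -1.22 (SE 0.48), Rab29, at -1.73 (SE 0.77), and Rab13, a Rab of tight junctions, at -1.20 (SE 0.55), each with an adjusted p of 0.755. Without the 2 libraries named above they were -0.91, -0.52 and -0.55, with an adjusted p of 0.99. Rab29 was at 6.94 and 0.48 TPM with Rnaseh1 against 12.1 and 8.88 TPM with mCherry, so 1 NSN Rnaseh1 library was close to the mCherry libraries and the other was not. Between configurations, 3 members had an unadjusted p under 0.05 with mCherry, 3 with Rnaseh1 and 2 for the difference of the Rnaseh1 effect, against 2.58%, 4.59% and 2.26% of all genes. Without the 2 libraries named above, 6 had one with mCherry and 16 with Rnaseh1, against 11.6% and 26.5% of all genes. Rab30, a Golgi Rab, was at 0.02 and 0.39 TPM in SN oocytes with mCherry against 2.93 and 3.07 TPM in NSN oocytes with mCherry, a difference of -1.75 (SE 0.49, adjusted p = 1). Rab30 reached 1 TPM only in NSN libraries of this table, so its direction followed from the filter. Rab5a was at 3.63 and 5.27 TPM in SN oocytes with mCherry against 10.1 and 13.3 TPM in NSN oocytes with mCherry, a difference of -1.23. Without the 2 libraries these were -1.97 and -1.44 (adjusted p = 0.407). With Rnaseh1, Rab5c was at 12.9 and 6.80 TPM in SN oocytes against 2.86 and 1.74 TPM in NSN oocytes, a difference of 1.68 (SE 0.59, adjusted p = 0.924). Rab2a was at 129 and 134 TPM in SN oocytes with Rnaseh1 against 78.4 and 79.5 TPM in NSN oocytes with Rnaseh1, a difference of 0.73 (SE 0.30, adjusted p = 1). Rab3a was -1.86 in the same comparison (SE 0.71, adjusted p = 1). Without the 2 libraries these were 1.43 for Rab5c (adjusted p = 0.145), 0.74 for Rab2a (adjusted p = 0.111) and -2.75 for Rab3a (adjusted p = 0.0632). The difference of the Rnaseh1 effect, SN minus NSN, was -2.66 for Rab43 (SE 0.92), which passed the filter only through SN oocytes with mCherry, -2.43 for Rab3a (SE 1.0) and 1.74 for Rab5c (SE 0.84), each with an adjusted p of 1. The first 2 are the members under an unadjusted p of 0.05. Without the 2 libraries the differences were -1.61, -2.65 and 2.21 (adjusted p = 0.519), and 9 members, or 20.9%, had an unadjusted p under 0.05, against 9.26% of all genes.

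The SN and NSN comparisons share no library with the rescue comparison, so their Rnaseh1 differences can be set side by side. All 6 members that rose in the rescue set had a positive difference with Rnaseh1 in SN and in NSN oocytes, as did 78.7% and 66.2% of all genes that rose in the rescue set; none of these passed in the first table. Of the 23 members that fell in the rescue set and were tested in the first table, 19 had a negative difference in SN and 18 in NSN oocytes, or 82.6% and 78.3%, against 87.7% and 88.3% of all fallen genes. The 23, here and below, include Rab5b, Rab39b and Rab40c, whose direction in the rescue set followed from the filter. In the first table Rab5b reached 1 TPM only in mCherry libraries, so the filter leaned it the same way there. Across the 38 members tested in both tables Spearman's rank correlation with the rescue difference was 0.70 in SN and 0.52 in NSN oocytes, against 0.69 and 0.55 across 11470 genes, a description across genes that share libraries and base composition. These likenesses rested in part on the 2 libraries that stand apart. Without them, 6 of the 6 risers had a positive difference in SN and 4 of 6 in NSN oocytes, against 61.1% and 52.7% of all genes that rose. Of the 23 fallers, 15 had a negative difference in SN and 8 in NSN oocytes, or 65.2% and 34.8%, against 68.2% and 45.8% of all genes that fell. The rank correlation over the members was then 0.48 in SN and -0.15 in NSN oocytes, against 0.31 and -0.05 across all genes. In NSN oocytes the likeness to the rescue set was thus not kept. Rab5c was an exception in SN oocytes, where it was at 12.9 and 6.80 TPM with Rnaseh1 against 1.65 and 6.19 TPM with mCherry, while it fell in the rescue set. Rab1b was at 2.34 and 1.17 TPM in SN oocytes with Rnaseh1 against 0.83 and 49.0 TPM with mCherry, so its first-table level hung on 1 library that stands apart. That library also held the highest level of Rab7 in the first table, at 879 TPM against 222 TPM in its partner.

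**Figure D4:**
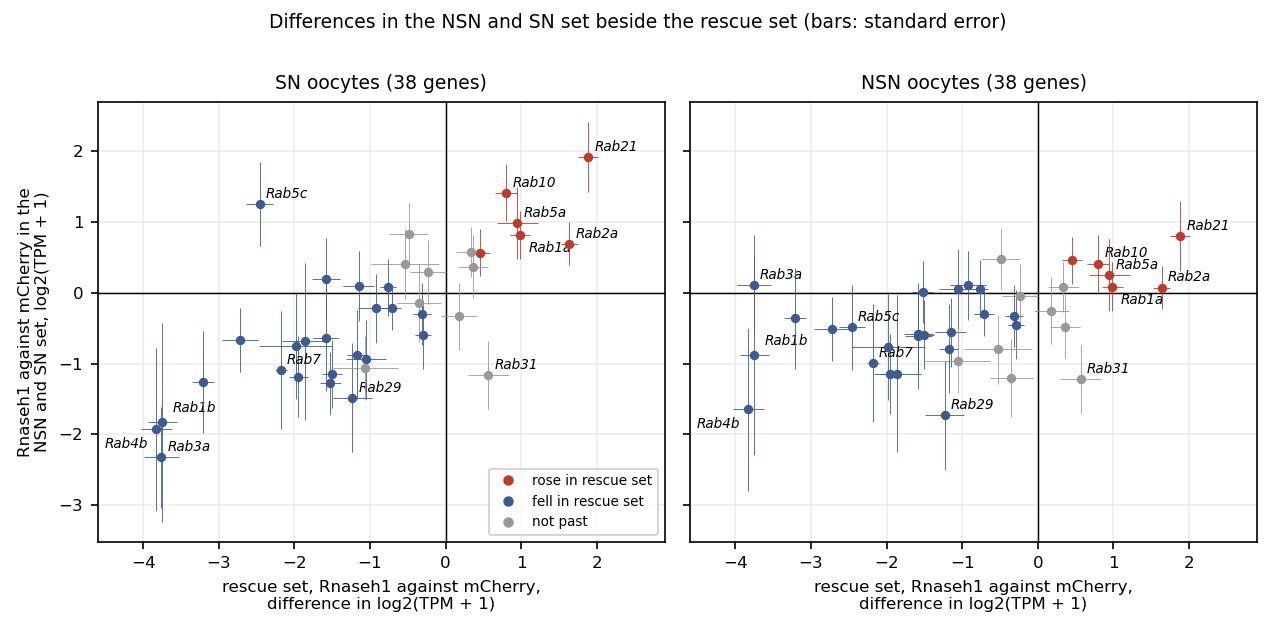
Difference in log2(TPM + 1) between Rnaseh1 and mCherry oocytes for the 38 Rab genes tested in both tables, in SN (left) and NSN oocytes (right), against the difference in the rescue set. Points toward the upper right are higher with Rnaseh1 in both; Rab21 is there in both panels, Rab2a is just above 0 in NSN oocytes, and Rab5c is high in SN oocytes but low in the rescue set.

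The Rab genes that rose and those that fell differed in base composition, which the choice of members did not use. The median GC content of the transcripts was 44.2% for the 6 genes that rose with Rnaseh1 in the rescue set, 51.8% for the 24 that fell and 48.6% for the others. At the last codon positions the medians were 47.2% for the risers and 65.9% for the fallers. Across the 39 members Spearman's rank correlation between GC content and the difference was -0.56, against -0.52 across all genes, close to the whole table. With Rnaseh1 plus Supt6 against Rnaseh1 it was 0.54, against 0.47 across all genes. In SN oocytes with Rnaseh1 against mCherry it was -0.45, against -0.47. In NSN oocytes it was weaker over the members, -0.18, against -0.30. The replicates that stand apart in the first table differ from their partners along the same axis, with a rank correlation across all genes between GC content and the second minus the first library of -0.43 in NSN oocytes with Rnaseh1 and 0.43 in SN oocytes with mCherry. In the other 5 groups it lay between -0.10 and 0.05.

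When the trend with GC content over all genes was removed from the rescue set, 16 members fell and 7 rose with Rnaseh1, and 20 calls were shared with the values as deposited. Over all genes 3678 fell and 3553 rose there. Rab21, whose transcripts have 54.1% GC, stood out further, at 3.14. Rab1b at -2.21, Rab3a at -2.24, Rab4b at -2.13 and Rab5b at -2.27 still fell, and Rab2a at 1.5 and Rab1a at 0.64 still rose. The direction of Rab5b followed from the filter, here and in the counts below. The calls of Rab11b, Rab25, Rab29, Rab35, Rab36, Rab38, Rab3b, Rab40c, Rab5a and Rab6a ended, and 3 of them, Rab3b, Rab36 and Rab40c, turned positive at 0.06, 0.31 and 0.53. Rab22a, Rab31 and Rab33b were called higher, at 1.23, 1.08 and 1.06. Of the calls with Rnaseh1 against mCherry, the share that rose was 20% as deposited, 40.0% with libraries centred on the median gene, 35.7% with quantile normalisation and 30.4% with the GC trend removed. Over all genes the same shares were 30.5%, 52.5%, 51.6% and 49.1%. Across all alternatives and left-out libraries, 4 rises (Rab21, Rab2a, Rab1a and Rab10) and 11 falls (Rab18, Rab1b, Rab27a, Rab32, Rab3a, Rab3d, Rab4b, Rab5b, Rab5c, Rab7 and Rab8a) passed every time.

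**Figure D5:**
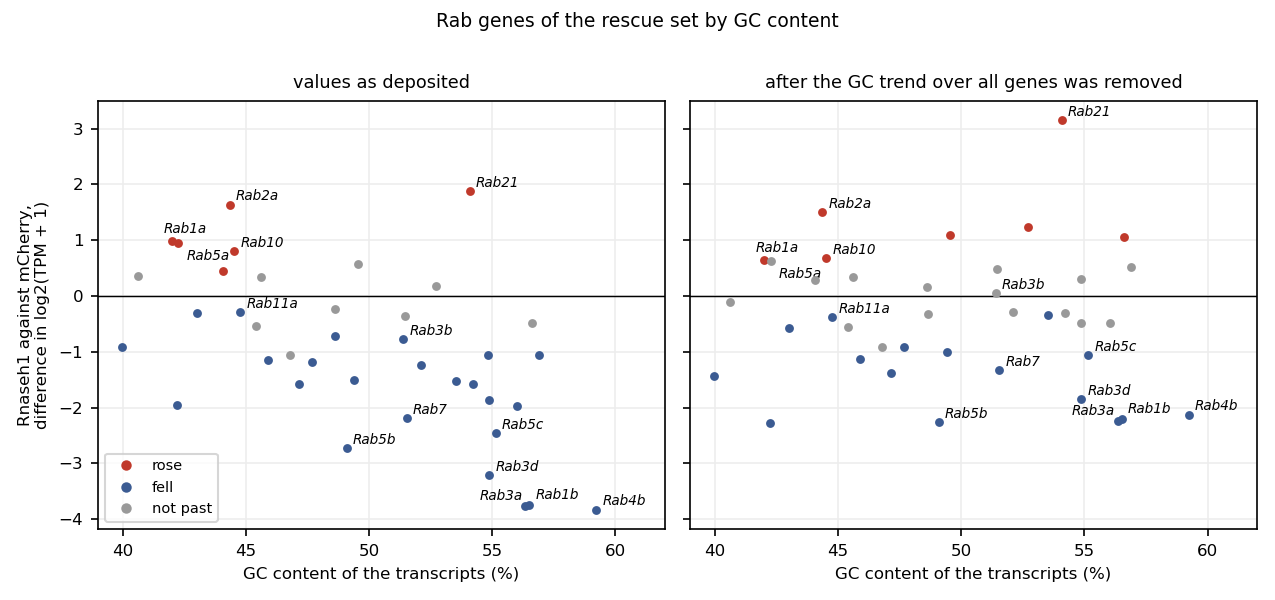
Difference in log2(TPM + 1) between Rnaseh1 and mCherry oocytes of the rescue set for 39 Rab genes, against the GC content of their transcripts in percent, as deposited (left) and with the trend over all genes removed (right). On the left the 6 risers apart from Rab21 lie under 45% GC and Rab1b, Rab3a and Rab4b at the GC-rich end are lowest; on the right these 3 are still below 0 and Rab21 is highest.

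The machinery that switches Rabs on and off was read from lists of the pathway, chosen with earlier results known. With Rnaseh1 against mCherry in the rescue set, 22 of the 32 GAPs tested fell and 1 rose, against 46.2% and 20.3% of all genes. The median difference of the GAPs was -1.02, against -0.52 over all genes. Sgsm3, a GAP with a TBC domain, was at 14.2 TPM with Rnaseh1 against 112 TPM with mCherry (-2.90, adjusted p = 5.23e-06). Tbc1d25, a GAP for Rab33b in autophagy, was at 1.34 TPM with Rnaseh1 against 23.1 TPM with mCherry (-3.37, adjusted p = 1.14e-05). Of the 32, 13 rose and 1 fell with Rnaseh1 plus Supt6 against Rnaseh1, where 41.6% and 17.4% of all genes did.

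Of 26 exchange factors tested, 17 fell and 3 rose with Rnaseh1, where 46.2% and 20.3% of all genes did. Rab3il1, an exchange factor for exocytic Rabs, was at 3.31 ± 0.361 TPM with Rnaseh1 against 133 ± 1.19 TPM with mCherry (SD, n = 2 each; -4.96, adjusted p = 6.76e-07). It was at 75.4 ± 1.29 TPM with Rnaseh1 plus Supt6, above Rnaseh1 (4.15, adjusted p = 1.55e-06) and below mCherry (-0.81, adjusted p = 0.0107). Mon1a, part of the exchange factor for Rab7, was at 6.57 TPM with Rnaseh1 against 32.1 TPM with mCherry (-2.13, adjusted p = 2.18e-05). The TRAPP complex, which activates Rab1, was split, with 5 of its 14 subunits risen and 6 fallen, against 20.3% and 46.2% of all genes. Its subunit Trappc6b was at 195 ± 3.97 TPM with Rnaseh1 against 48.7 ± 1.22 TPM with mCherry (1.98, adjusted p = 3.38e-06). Trappc3, the subunit at the core of the complex, was at 6.33 ± 0.184 TPM with Rnaseh1 against 74.5 ± 4.84 TPM with mCherry (-3.36, adjusted p = 1.35e-06).

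In the list for prenylation and membrane delivery, 3 of 6 genes tested fell and 1 rose, near the 46.2% and 20.3% of all genes. Rabggta, a subunit of the enzyme that adds the geranylgeranyl anchor, was at 4.04 TPM with Rnaseh1 against 17.4 TPM with mCherry (-1.95, adjusted p = 0.00144), and Rabif, a chaperone of nucleotide-free Rabs, was at 8.62 ± 2.0 TPM against 45.7 ± 6.36 TPM (-2.29, adjusted p = 3.92e-05). Of 31 Rab effectors tested, 12 fell and 6 rose, with a median of -0.40, while 46.2% of all genes fell and 20.3% rose with a median of -0.52. Golga2, the Golgi tether GM130, was at 3.68 TPM with Rnaseh1 against 25.8 TPM with mCherry, and Rims1, an effector of Rab3, was at 7.36 TPM against 31.9 TPM.

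The oocyte's set for moving Rab11a vesicles along actin held 5 genes, of which 4 fell and 1 rose with Rnaseh1. Over all genes 46.2% fell and 20.3% rose. Myo5b, the myosin that Rab11a recruits, was at 72.9 ± 0.707 TPM with Rnaseh1 against 173 ± 27.0 TPM with mCherry (-1.22, adjusted p = 9.39e-05). Fmn2, the formin that builds the actin filaments, was at 68.5 ± 2.96 TPM with Rnaseh1 against 33.3 ± 0.17 TPM with mCherry (1.02, adjusted p = 0.000171). Fmn2 was at 32.6 TPM with Rnaseh1 plus Supt6, below Rnaseh1 alone (-1.05, adjusted p = 0.000196). The motor and the formin thus moved apart while Rab11a itself changed little.

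Other branches of small GTPases gave a setting for these counts. With Rnaseh1 against mCherry the median difference was -0.45 for 24 Arf and Sar genes and -0.31 for 22 Ras genes, against -1.05 for the 39 Rab genes and -0.52 over all genes. Of the Ras genes 7 rose and 9 fell, and of the Arf and Sar genes 8 rose and 11 fell, against 20.3% and 46.2% of all genes. Of the 6 Rab-like genes 0 rose and 3 fell, with a median of -0.40. With a pseudocount of 5 the medians of the Rab genes and of all genes were -0.36 and -0.28. No test of the difference between branches was run.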

How the data were processed

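PolyA RNA of mouse oocytes was sequenced in 14 libraries, 7 groups of 2. The authors deposited TPM values in 2 tables. The submitters' processing notes name Trim Galore 0.6.7, STAR 2.7.0d, RSEM 1.3.3 and mm10, with no roles. Per the labels' protocols libraries were made from reverse-transcribed polyA RNA with a transposase kit. TPM keeps no depth, so counts per library are unknown and no counting interval is given. Whether counting used strand is not given in the sources used here: 15 members overlap a gene on the opposite strand (Rab10, Rab11b, Rab7, Rab5a, Rab3a, Rab3b, Rab6a and Rab2b among them) and 4 processed pseudogenes carry family names, so their levels are uncertain.

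The 2 tables were fitted separately, with limma 3.58.1 in R 4.3.3, on log2(TPM + 1), over genes at 1 TPM or more in at least 2 libraries (12736 and 12859 genes, 43 and 39 of them members), with all groups of a table sharing 1 spread, a mean-variance trend and Benjamini-Hochberg adjustment over all genes tested. The differences understate changes of low genes. Identifiers were matched to GENCODE M21 (GRCm38), pairing 34611 with a symbol and a GC content. The fit was tested on simulated data. Named members were the largest calls per direction whose libraries did not overlap, the 3 smallest p per first-table comparison, the 5 most abundant, the close copies, and Rab11a, Rab27a, Rab3a and Rab8a; of each pathway list up to 2 genes with the smallest p. Rab10, Rab14, Rab18 and others named with a role were chosen after their values were seen. Members and lists were chosen with earlier results of these data known. Alternatives were pseudocounts of 0.1 and 5, no filter and a filter of 5 TPM, median centring, quantile normalisation, removal of the trend with GC content (loess, span 0.3), a replicate block, leaving out each library, and leaving out NSN Rnaseh1 replicate 2 and SN mCherry replicate 2 together. A further gene list is not reported here.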

Additional observations from a re-analysis of the deposited data

How the results depend on the processing

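The counts of members called kept their direction, while single genes changed sign under some scalings. With Rnaseh1 against mCherry in the rescue set, Rab33b turned from -0.49 to 1.06 with the GC trend removed. It passed there (limma, adjusted p = 0.0132, and 0.0217 with the replicate block). The changes of sign given next were not past the threshold after the change. With Rnaseh1 against mCherry in the rescue set, median centring gave 0.29 for Rab11a and 0.28 for Rab14, and removal of the GC trend, with or without the replicate block, gave 0.31 for Rab36, 0.058 for Rab3b, 0.53 for Rab40c and -0.10 for Rab8b. Between Rnaseh1 plus Supt6 and Rnaseh1, median centring gave -0.17 for Rab11a and -0.28 for Rab14, quantile normalisation -0.055 for Rab27a, and removal of the GC trend, with or without the replicate block, -0.17 for Rab3b and -0.42 for Rab40c. With Rnaseh1 plus Supt6 against mCherry, Rab1b was 0.0013 and Rab21 0.23 with the GC trend removed, with or without the block, and Rab21 was 0.039 with median centring, 0.072 with quantile normalisation, and between -0.15 and 0.083 with 1 library left out (0.013 without Rnaseh1 plus Supt6 replicate 2, the highest without mCherry replicate 1). Without NSN Rnaseh1 replicate 2 and SN mCherry replicate 2, the members' median difference with Rnaseh1 against mCherry was 0.01 in SN and 0.02 in NSN oocytes, against -0.33 and -0.36 with them. It was -0.69 in SN oocytes without SN mCherry replicate 1, and -0.69 in NSN oocytes without NSN Rnaseh1 replicate 1. With Rnaseh1 against mCherry in the rescue set, members that rose numbered 10 with median centring and 10 with quantile normalisation, against 6, and members that fell numbered 15 with median centring and 15 with a replicate block and the GC trend removed, against 24. With Rnaseh1 plus Supt6 against mCherry, 1 member rose with the GC trend removed (Rab4b, 0.86, adjusted p = 0.0463), and 2 fell without a filter and 2 with a pseudocount of 0.1, against 4. With Rnaseh1 plus Supt6 against Rnaseh1, 13 rose and 8 fell with median centring and 9 fell with quantile normalisation, against 21 and 4. The cause was not tested.

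Leaving out 1 library at a time gave 4 to 7 rises and 20 to 23 falls with Rnaseh1 against mCherry, 0 rises and 0 to 5 falls with Rnaseh1 plus Supt6 against mCherry, and 16 to 21 rises and 4 to 6 falls with Rnaseh1 plus Supt6 against Rnaseh1. A group left with 1 library was assumed to vary like the others. In NSN oocytes 0 to 2 members fell with Rnaseh1: without NSN Rnaseh1 replicate 1, Rab18 (-2.0, adjusted p = 0.0314) and Rab29 (-2.94, adjusted p = 0.0266) passed. The other first-table comparisons stayed at 0 calls (limma).

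The replicate block gave 6 rises and 25 falls with Rnaseh1 against mCherry, 0 and 3 with Rnaseh1 plus Supt6 against mCherry, 21 and 4 with Rnaseh1 plus Supt6 against Rnaseh1, and 0 calls in the first table. Same-numbered libraries correlated between -0.21 and 0.17 in their deviations, which cannot show whether they shared animals, pools or days. With 2 libraries a group, small differences such as those of Rab11a and Rab14 are at the limit of what can be called.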
